A study of Mus musculus with 9 samples.

Results

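The comparison set the 6 libraries from mouse embryonic stem cells depleted of Fam60a or of Sin3a, taken as 1 group, against the 3 libraries from cells with a control hairpin. Membership followed the sample titles: 3 libraries named for Fam60a, 3 named for Sin3a and 3 named T2SC, together 9 of the 9 libraries of the series. All 9 came from E14, a mouse embryonic stem cell line, grown without feeders on gelatin in medium with 10% fetal bovine serum and 1000 U/ml leukaemia inhibitory factor. Every line, the controls included, had taken up a lentiviral pLKO.1 vector during 24 h with virus, had been selected with 2 ug/ml puromycin and had been passaged 3 times before total RNA was taken. The vector expressed a short hairpin RNA with Fam60a or Sin3a as its target, or a scrambled sequence with none. The depleted lines were described as 3 biological replicates, with controls made in parallel. The hairpin sequences are not given in the sources used here, and both knockdowns were compared with the same 3 control libraries. The comparison asks which transcripts moved alike when either of 2 members of one complex was depleted.

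Sin3a is the scaffold of a corepressor complex that brings the histone deacetylases Hdac1 and Hdac2 to chromatin, where removal of acetyl groups from histones goes with lower transcription. Fam60a, named Sinhcaf in current annotation, is a subunit of this complex in embryonic stem cells. Such cells express Oct4 (Pou5f1), Sox2 and Nanog, and cultures in serum also hold a minority of cells that have started towards primitive endoderm, neural or other fates.

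The targeted transcripts were examined first. Sinhcaf stood at 5.59, 6.54 and 5.06 CPM (gene-level counts relative to depth after TMM scaling) in the Fam60a knockdown, at 13.9, 14.3 and 18.7 CPM in the Sin3a knockdown and at 13.4, 14 and 13.1 CPM in control cells. The mean in the Fam60a knockdown was 42.4% of the control mean, and all 3 of those libraries lay below the other 6. Sin3a stood at 131, 136 and 110 CPM in the Sin3a knockdown, 227, 216 and 207 CPM in the Fam60a knockdown and 311, 281 and 268 CPM in control cells. Its mean was 43.9% of control in the Sin3a knockdown and 75.6% of control in the Fam60a knockdown, so all 6 knockdown libraries lay below the 3 controls. As a pooled group neither target passed the test: the log2 fold change was -0.37 ± 0.47 (SE; adjusted p = 0.757) for Sinhcaf and -0.74 ± 0.25 (adjusted p = 0.148) for Sin3a. Each target was lowest under its own hairpin, and the pooled test counts such a difference between the hairpins as residual spread.

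Library totals were 5511453 to 7674887 reads in 8 libraries and 2607872 reads in the third Sin3a replicate. A floor of 3 reads corresponded to 0.391 to 1.15 CPM, which covers counting error only. The third Sin3a replicate also stood apart in other measures. Its correlation with the other libraries of its group was 0.885, against 0.935 to 0.981 for the other 8, across genes, which are not replicates. It held 89 reads of mitochondrially encoded genes, against 6252 to 7097 elsewhere. Its genes of low GC content (at most 41.6%) deviated by a median of -1.22 log2 units from the mean of the other libraries of its group. By the same measure, whose reference there includes the third replicate, Sin3a replicates 1 and 2 stood at 0.583 and 0.653. The Fam60a and control libraries stood at -0.0418 to 0.0541. Leaving out the third Sin3a replicate raised the number of called genes from 676 to 2445 (1397 higher, or 9.48%, and 1048 lower, or 7.11%), including all 676. The common coefficient of variation of the pooled model, which includes differences between the hairpins, went from 0.26 to 0.156. That of the 3-group model went from 0.202 to 0.0457.

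Over 14465 tested genes, 676 (4.67%) passed an adjusted p of 0.05 in edgeR's quasi-likelihood test with the replicate number as a block. Of these, 349 rose (2.41% of tested genes) and 327 fell (2.26%). At least a 2-fold change was seen in 513 of them, 238 higher and 275 lower. The mean of the knockdowns in a 3-group model, which keeps hairpin differences out of the residual, gave 1791 called genes (12.4%), 782 higher (5.41%) and 1009 lower (6.98%). The median log2 fold change was 1.27 among genes that rose and -1.65 among genes that fell, against -0.01 over all tested genes. In bulk RNA, fewer cells of a type and less RNA per cell cannot be told apart.

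In controls, the median level was 22.8 CPM for genes that rose, 16.9 CPM for genes that fell and 44.7 CPM for all tested genes. In the knockdowns the medians were 51, 5.3 and 46.9 CPM in the same order. Control levels enter the comparison itself, so these medians are a description. The 6 knockdown libraries did not overlap the 3 controls for 264 of the 349 rises and 318 of the 327 falls. Over all tested genes the same was true of 6.44% in the upward and 9.04% in the downward direction. All 349 rises were higher in 6 of 6 same-numbered pairs of a knockdown and a control library, where 13.9% of tested genes were, and all 327 falls were lower in 6 of 6 pairs, where 16.7% were. The calls were made on these same libraries and favour such genes, so these shares are a description too.

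Leaving out a control library ended more calls than leaving out any other. With the replicate number as a block, each block held 1 control. Without that control, the knockdown libraries of its number no longer entered the contrast with control. Without control replicate 1, or without control replicate 2, edgeR called 0 genes, with 1661 and 1708 genes at an unadjusted p under 0.05. In both of these fits all 676 genes kept their direction and an unadjusted p under 0.05. Without control replicate 3, 53 genes were called, and without all 3 libraries numbered 3, 916 were called. On the sets without control replicate 1 or 2, DESeq2 called 556 and 600 genes and limma voom 3493 and 3245. Of the 100 called genes chosen by rule for description, 0 held without control replicate 1 or 2, and 21 without control replicate 3. Without 1 of the Fam60a libraries 48, 57 and 83 held, and without Sin3a replicates 1, 2 and 3 the numbers were 37, 52 and 100. For 15 genes control replicates 1 and 2 were the only libraries whose loss ended the call: Itga4, Fat2, Rbm20, Tes, Itga8, Plce1, Fbp2, Fam196a, Fgf15, Fgf17, Calb2, Cpne9, Mcf2, Elavl3 and Tubb3. Their adjusted p reached at most 0.142 over the alternatives. Another 13 were called in 1 of the 9 fits that left out a library, the one without the third Sin3a replicate, among them Tbx20, Adrb1, Rac2, Fxyd2, Car14, Dchs1, Fgf4, Loxl1, Loxl2 and Grm4.

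**Figure D1:**
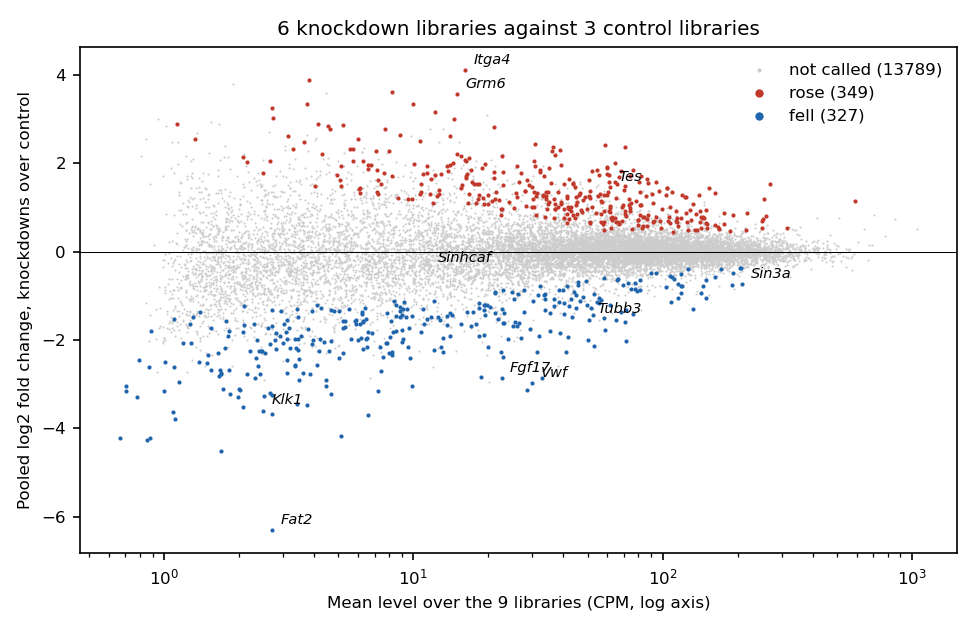
Pooled log2 fold change of the 6 knockdown over the 3 control libraries (vertical axis) against the mean level over the 9 libraries in CPM (horizontal log axis), 1 point per tested gene, red for the 349 that rose and blue for the 327 that fell. Itga4 and Grm6 are at the top and Fat2 at the bottom, and Sinhcaf and Sin3a are among the genes not called.

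Itga4, Grm6, Fat2 and Klk1 had been picked out as markers of this comparison with earlier results known, so their values are a description. Itga4 encodes the integrin alpha-4 subunit, a receptor for fibronectin and VCAM1 (chromosome 2, 79255426 to 79333123, GRCm38, plus strand). Grm6 encodes a metabotropic glutamate receptor best known from retinal bipolar cells (chromosome 11, 50850685 to 50866208, plus strand). Fat2 encodes an atypical cadherin (chromosome 11, 55250609 to 55336564, minus strand), and Klk1 the tissue kallikrein, a secreted serine protease (chromosome 7, 44225360 to 44229618, plus strand). Windows listed as their promoters are shown to place the 2 rises and 2 falls that mark the comparison side by side. Each is the RefSeq window from 250 bases before to 50 after the start on GRCm38.p6, on the gene's strand, with CG dinucleotides in capitals.

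Itga4, chr2:79255176-79255475, plus strand:
Itga4: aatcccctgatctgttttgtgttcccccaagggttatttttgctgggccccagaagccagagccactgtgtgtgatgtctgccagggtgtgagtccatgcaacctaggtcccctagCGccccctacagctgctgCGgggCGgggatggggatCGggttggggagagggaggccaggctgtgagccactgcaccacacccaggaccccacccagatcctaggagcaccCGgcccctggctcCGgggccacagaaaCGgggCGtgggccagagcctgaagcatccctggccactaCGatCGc
Grm6, chr11:50850435-50850734, plus strand:
Grm6: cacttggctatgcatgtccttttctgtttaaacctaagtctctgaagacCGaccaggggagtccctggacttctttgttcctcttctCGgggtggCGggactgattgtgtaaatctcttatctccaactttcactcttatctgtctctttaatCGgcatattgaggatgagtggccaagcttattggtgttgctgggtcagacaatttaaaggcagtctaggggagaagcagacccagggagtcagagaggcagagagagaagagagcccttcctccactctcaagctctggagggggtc
Fat2, chr11:55312208-55312507, minus strand:
Fat2: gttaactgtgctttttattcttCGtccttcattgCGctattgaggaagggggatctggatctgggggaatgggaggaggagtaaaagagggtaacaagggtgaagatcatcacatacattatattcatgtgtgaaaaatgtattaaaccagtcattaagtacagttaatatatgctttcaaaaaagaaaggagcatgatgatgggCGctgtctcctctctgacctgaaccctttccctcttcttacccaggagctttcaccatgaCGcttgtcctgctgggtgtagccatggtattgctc
Klk1, chr7:44225110-44225409, plus strand:
Klk1: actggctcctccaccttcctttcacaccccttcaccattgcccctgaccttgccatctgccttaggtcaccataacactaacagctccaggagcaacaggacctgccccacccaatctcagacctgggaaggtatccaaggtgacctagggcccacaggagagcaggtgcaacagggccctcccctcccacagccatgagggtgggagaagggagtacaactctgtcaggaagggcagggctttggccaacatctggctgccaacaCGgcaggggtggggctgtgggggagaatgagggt

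The Itga4 window held 10 CG dinucleotides, against a median of 7 over the 27025 promoters listed, while Grm6 and Fat2 held 4 each and Klk1 1. The GC content was 64.3% for Itga4, 49.7% for Grm6, 43.7% for Fat2 and 60.0% for Klk1. Letters were searched on both strands. The GC box GGGCGG was found once, in Itga4 (35.9% of all listed promoters hold it), and CCAAT in Grm6 and Klk1 (37.9%). The E-box CACGTG (7.24%), the E2F-type motifs TTTGGCGC (0.537%) and TTTCCCGC (1.11%) and the TATA box TATAAA (14.2%) were in none of the 4 windows. The Fat2 window lies inside the span of the gene given above, since RefSeq's listed start is downstream of the outermost one in GENCODE. It may therefore not be a promoter of the gene, which was not tested. Its CG count, GC content and motifs describe the listed window only.

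Itga4 stood at 0.977, 2.31 and 0.745 CPM in controls, 24.5, 27.7 and 14.2 CPM in the Fam60a knockdown and 33.2, 32.5 and 8.53 CPM in the Sin3a knockdown. The groups did not overlap, and the third replicate was the lowest of each group. The mean was 1.35 ± 0.846 CPM (SD, n = 3) in controls and 23.4 ± 10.0 CPM (SD, n = 6) in the knockdowns, a log2 fold change of 4.11 ± 0.37 (SE; adjusted p = 0.00628). Taken separately, it was 4.08 for the Fam60a and 4.13 for the Sin3a hairpin, a difference of -0.05 ± 0.29 (adjusted p = 0.925).

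Grm6 stood at 1.30, 2.89 and 1.34 CPM in controls, 18.7, 28.9 and 11.9 CPM in the Fam60a knockdown and 17.1, 20.8 and 31.7 CPM in the Sin3a knockdown. Every knockdown library was above every control, and the log2 fold change was 3.56 ± 0.43 (adjusted p = 0.0125). Its difference between the knockdowns was -0.26 ± 0.38 on the log2 scale. Grm6 thus had a called rise whose size differed between the hairpins by less than its error.

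Fat2 was at or near 0 in every knockdown library. The controls stood at 7.49, 9.83 and 6.70 CPM, from 159 reads in all, while the 6 knockdown libraries held 3 reads, all in the Fam60a knockdown (0, 0.257 and 0.158 CPM). The ratio of reads per total was 95.1-fold lower in the knockdowns, with an exact 95% counting interval of 32.0 to 466 (adjusted p = 0.00628). In the Fam60a knockdown alone it was 55.4-fold lower (18.6 to 272), and in the Sin3a knockdown, where 0 reads were found, at least 39.7-fold lower against a floor of 3 reads over the group.

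Klk1 stood at 5.70, 5.49 and 8.19 CPM in controls, 0.453, 0.257 and 0.316 CPM in the Fam60a knockdown and 0.915, 0.743 and 0.406 CPM in the Sin3a knockdown. The groups were wide apart, and the log2 fold change was -3.60 ± 0.41 (adjusted p = 0.0115) from 128 control reads and 18 knockdown reads. Klk1 belongs to a gene family with near-identical members, so its reads may be shared among them.

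The 15 rises with the largest change common to both knockdowns included several cell surface receptors. The rule that chose them, and the 15 falls below, required that knockdown and control libraries did not overlap. Ptafr, the receptor for platelet-activating factor, stood at 0.326, 1.16 and 1.04 CPM in controls, 17.2, 20.8 and 3.95 CPM in the Fam60a knockdown and 14, 10 and 5.69 CPM in the Sin3a knockdown. The pooled change was 3.61 ± 0.61 on the log2 scale (adjusted p = 0.0224). Ffar3, a receptor for short-chain fatty acids, stood at 0.815, 2.02 and 1.34 CPM in controls, 21.6, 20.9 and 8.54 CPM in the Fam60a knockdown and 10.4, 9.47 and 14.6 CPM in the Sin3a knockdown, a log2 fold change of 3.33 ± 0.51. Both receptor genes were low in every control and higher in every knockdown library. Sema6d, a transmembrane semaphorin, rose by 2.88 ± 0.40, from at most 1.04 CPM in controls to at least 4.43 CPM in the knockdowns.

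Enzymes and regulators made up much of the rest. Cyp26b1, which breaks down retinoic acid, stood at 1.63, 1.45 and 4.02 CPM in controls, 10.6, 11.3 and 27.0 CPM in the Fam60a knockdown and 12.0, 9.47 and 54.0 CPM in the Sin3a knockdown (log2 fold change 3 ± 0.34, adjusted p = 0.0115). The third replicate was the highest in all 3 groups, and within each number the knockdowns were above the control.

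Foxl2, a forkhead factor of ovarian granulosa cells, stood at 0.163, 0 and 1.04 CPM in controls and between 2.18 and 15.4 CPM in the knockdowns (log2 fold change 3.88 ± 0.78, adjusted p = 0.0347, 0.0797 without the block). C1qtnf2, which encodes a secreted protein with a C1q domain, had 8 control reads, as Foxl2 did, and an adjusted p of 0.0484 that became 0.0792 without the block. For both, the highest value was in the third Sin3a replicate, and without that library the adjusted p was 0.0264 for Foxl2 and 0.0175 for C1qtnf2. These 2 rises thus rest on few control reads. The transcriptional coactivator Cited4 rose by 2.62 ± 0.38, from 2.77 to 3.90 CPM in controls to 10.3 to 27.6 CPM in the knockdowns. Gipc2, a PDZ-domain protein, rose by 2.85 ± 0.33, from 0.723 to 0.977 CPM in controls to 5.39 to 8.53 CPM in the knockdowns. The remaining 4 of the 15, Fam196a, Nipal4, Ajap1 and Ccdc184, had log2 fold changes of 2.83 ± 0.22, 3.26 ± 0.56, 2.61 ± 0.41 and 2.87 ± 0.47. Ajap1 encodes a protein of adherens junctions, and in all 4 genes every knockdown library was above every control, as the rule required.

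The 15 falls with the largest common change, after Fat2 and Klk1, were led by the membrane serine protease Tmprss13. It stood at 14.8, 11.4 and 15.3 CPM in controls, 2.11, 1.15 and 0.316 CPM in the Fam60a knockdown and 0.305, 0.557 and 0 CPM in the Sin3a knockdown (log2 fold change -4.18 ± 0.60, adjusted p = 0.0168). Slfn9, a Schlafen gene, stood at 15.3, 21.5 and 14.7 CPM in controls and between 0.406 and 2.82 CPM in the knockdowns (-3.71 ± 0.46). Schlafen genes are close paralogs, so reads may be split among them. Foxr2, a forkhead factor, stood at 6.22 to 7.60 CPM in controls and at 0 to 1.11 CPM in the knockdowns (-3.67 ± 0.54).

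Vwf, the von Willebrand factor of blood clotting, stood at 68.4, 77.1 and 69.0 CPM in controls, 11.5, 11.7 and 5.69 CPM in the Fam60a knockdown and 6.86, 4.64 and 15 CPM in the Sin3a knockdown, a fall of 2.98 on the log2 scale (SE 0.36). Fgf17 stood at 54.1, 51.2 and 52.6 CPM in controls, 7.40, 8.85 and 4.74 CPM in the Fam60a knockdown and 11.4, 9.28 and 3.66 CPM in the Sin3a knockdown (-2.87 ± 0.26, adjusted p = 0.00628). Fgf15, another fibroblast growth factor gene, stood at 20.8 to 26.7 CPM in controls and at 1.22 to 3.51 CPM in the knockdowns (-3.04 ± 0.29). The controls of all 3 were close together, and the knockdown libraries lay several-fold lower. Serpinf1, which encodes pigment epithelium-derived factor, fell by 3.52 on the log2 scale (SE 0.62), with 0 reads in the third replicate of each knockdown.

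Among the remaining falls, Pklr, the pyruvate kinase of liver and red cells, changed by -3.21 ± 0.52, and Gjb1, a gap junction connexin, by -2.90 ± 0.31. Cpne9, a calcium-dependent copine, changed by -3.05 ± 0.31. Dclk1, a doublecortin-like kinase, changed by -2.78 ± 0.39, and control replicate 3, at 2.23 CPM, was the nearest of the controls to the knockdown libraries. Calb2 and Ncan are described with the neural genes.

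**Figure D2:**
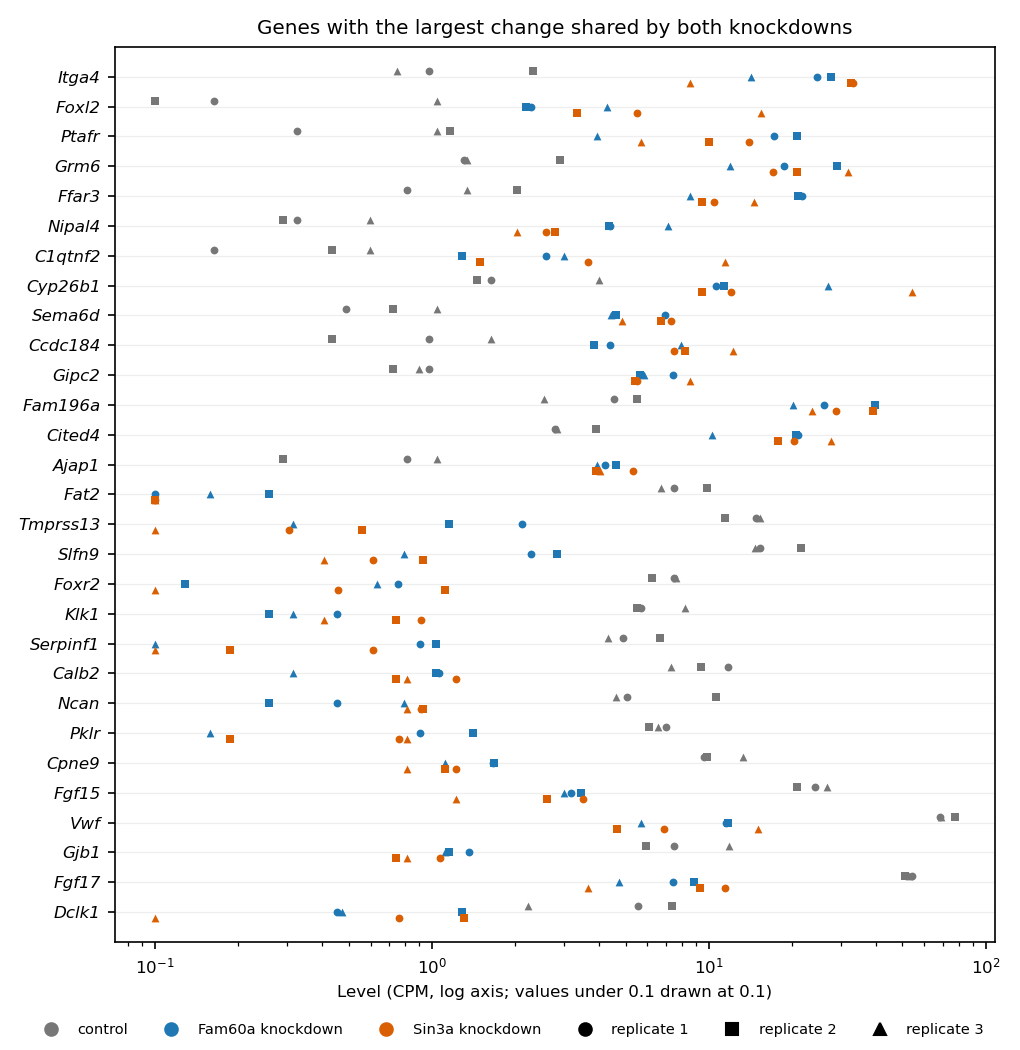
Level in each library, in CPM on a log axis, of 14 of the 15 rises and of the 15 falls with the largest change common to both knockdowns, grey for controls, blue for the Fam60a knockdown and orange for the Sin3a knockdown, with a symbol for each replicate number and values under 0.1 drawn at 0.1. Controls and knockdowns do not overlap for any of these 29 genes, which the rule for choosing them required.

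The rises with the smallest adjusted p among genes averaging 20 CPM or more included Rbm20. This gene, a splicing factor of cardiac muscle, stood at 8.31, 7.66 and 7.45 CPM in controls, 40.2, 49.7 and 49.0 CPM in the Fam60a knockdown and 34.9, 42.5 and 37.4 CPM in the Sin3a knockdown (log2 fold change 2.43 ± 0.20, adjusted p = 0.00628). Tes, a focal adhesion protein with LIM domains, stood at 27.9, 25.2 and 32.2 CPM in controls and at 63.1 to 97.9 CPM in the knockdowns (1.46 ± 0.13). In both genes the spread within groups was small against the step between them. Fbp2, the muscle fructose-bisphosphatase, stood at 30.8, 31.1 and 46.9 CPM in controls and at 98.7 to 139 CPM in the knockdowns (1.64 ± 0.16). The signalling enzymes Plce1, a phospholipase C, and Map3k6, a kinase, rose by 1.29 ± 0.13 and 1.73 ± 0.19. Map3k6 had its highest value, 116 CPM, in the third Sin3a replicate.

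The falls chosen in the same way included Mcf2, a guanine nucleotide exchange factor, which stood at 123, 108 and 98.9 CPM in controls and at 18.7 to 40.6 CPM in the knockdowns (-1.78 ± 0.15, adjusted p = 0.00628). Actn3, the alpha-actinin of fast muscle fibres, stood at 86.7, 71.9 and 71.4 CPM in controls, 12.7, 10.9 and 4.11 CPM in the Fam60a knockdown and 13.4, 10.8 and 13.8 CPM in the Sin3a knockdown (-2.85 ± 0.30). Dtx1, a deltex protein of the Notch pathway, stood at 60.6 to 73.2 CPM in controls and at 10.2 to 20.5 CPM in the knockdowns (-2.27 ± 0.25). All 3 averaged 20 CPM or more and were lower in every knockdown library than in every control. Reads were few in some libraries, with 26 for Actn3 in the third Fam60a and 27 for Dtx1 in the third Sin3a replicate. Crmp1, a collapsin response mediator, changed by -1.33 ± 0.14.

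Most called genes did not differ by test between the hairpins, but the pooled model favours such genes by construction. Over all tested genes, 672 (4.65%) differed between the Fam60a and the Sin3a knockdown, and 16 of the 676 pooled calls were among them, 6 that rose and 10 that fell. Of the 6 rises, 4 were larger in the Fam60a knockdown and 2, Plk2 and the noncoding 5830418P13Rik, in the Sin3a knockdown. Tbx20, a T-box factor of the heart, stood at 26.6, 31.1 and 28.8 CPM there, 13.1, 11.7 and 10.2 CPM in the Sin3a knockdown and 3.58, 4.77 and 4.92 CPM in controls, a difference of 1.28 on the log2 scale (adjusted p = 0.0233). Adrb1, the beta-1 adrenergic receptor, stood at 32.3, 37.7 and 37.5 CPM against 15.9, 14.3 and 17.5 CPM, with 5.21 to 7.37 CPM in controls (difference 1.18). In both genes the Sin3a knockdown was intermediate and no 2 groups overlapped. The growth factor receptors Tgfbr2 and Fgfr4 differed by 0.89 and 0.88 in the same direction. Plk2, a polo-like kinase, went the other way, at 99.5, 101 and 124 CPM in the Fam60a and 148, 160 and 190 CPM in the Sin3a knockdown, against 47.6, 47.7 and 65.1 CPM in controls (difference -0.62, adjusted p = 0.0232).

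The falls that differed most were deeper in the Sin3a knockdown. Lefty1, a secreted inhibitor of Nodal, stood at 74.1, 64.8 and 70.8 CPM in controls, 14.7, 9.24 and 18.2 CPM in the Fam60a knockdown and 1.83, 1.11 and 2.84 CPM in the Sin3a knockdown. The pooled log2 fold change was -3.14 ± 0.72 (adjusted p = 0.0497), made of -2.37 in the Fam60a and -5.29 in the Sin3a knockdown, and the difference of 2.91 had an adjusted p of 0.0109. Lefty1 was thus lower in every library of both knockdowns, by unequal amounts. Rac2, a GTPase of blood cells, differed by 2.12, Fxyd2, a regulator of the sodium pump, by 2.33, the transcription factor Nfatc4 by 1.44 and Cpsf4l by 1.38. Over the alternatives the adjusted p of Tbx20, Adrb1, Rac2 and Fxyd2 reached 0.242 to 0.267.

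**Figure D3:**
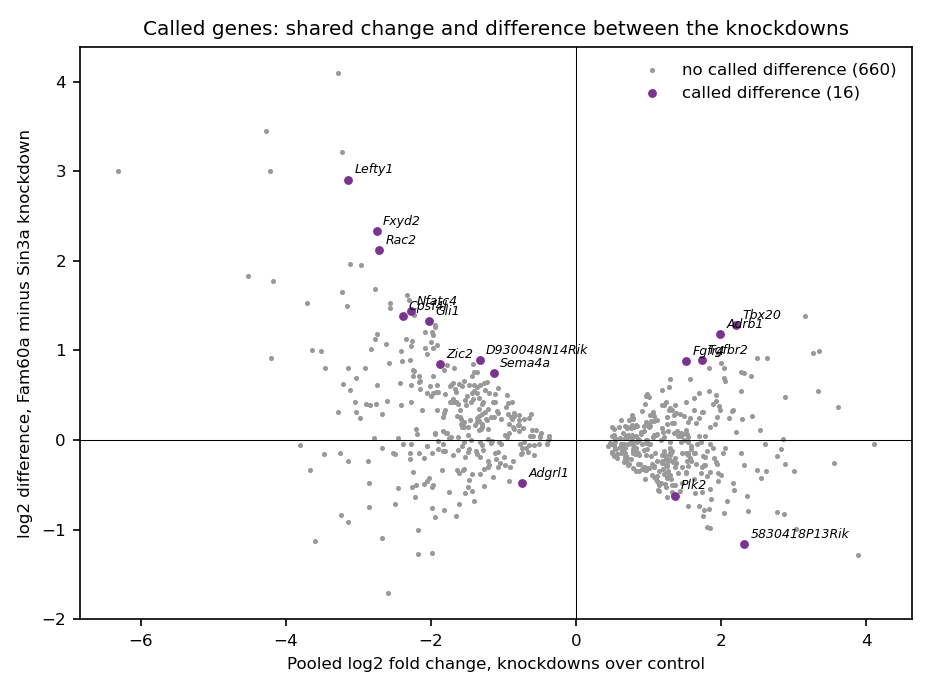
For each of the 676 called genes, the pooled log2 fold change (horizontal) and the log2 difference of the Fam60a minus the Sin3a knockdown (vertical), purple for the 16 with a called difference. Lefty1, Fxyd2 and Rac2 lie above 2 on the vertical axis, and fitted differences of genes with few reads, such as Fat2 at the far left, are not bounds.

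Genes of primitive endoderm, the extraembryonic layer that lines the yolk sac, had the highest share of rises of the 23 gene lists examined. In edgeR 8 of 20 tested members rose and 0 fell, against 2.41% and 2.26% of all tested genes, and the list's median log2 fold change was 0.93. The 8 were the transcription factors Gata6, Gata4, Sox17, Sox7, Foxa2 and Foxq1, the growth factor receptor Pdgfra and the basement membrane collagen Col4a2. Gata6 stood at 57.0, 61.0 and 137 CPM in controls, 195, 171 and 211 CPM in the Fam60a knockdown and 208, 195 and 221 CPM in the Sin3a knockdown (1.32 ± 0.21, adjusted p = 0.0209). Sox17 stood at 19.2, 21.1 and 73.9 CPM in controls, 86.1, 66.2 and 116 CPM in the Fam60a knockdown and 88.7, 63.3 and 186 CPM in the Sin3a knockdown (1.57 ± 0.25). Replicate 3 was the highest of each group for both, so that Sox17 in the third control overlapped the knockdowns of other numbers. Foxa2 had the largest change of the list, 1.89 ± 0.31. With p left unadjusted (under 0.05) there were 14 rises and 0 falls, with 13 rises by DESeq2 and 17 by limma voom and 0 falls by either. Over all 14465 tested genes, DESeq2 called 889 rises and 683 falls and limma voom 3022 and 3150. In edgeR 2738 genes had an unadjusted p under 0.05. List counts from these settings, here and below, are to be read against these totals. Limma voom also gave the Sin3a libraries weights of 0.0602 to 0.384, against 0.951 to 1.84 for the Fam60a libraries. Its counts therefore lean on the Fam60a knockdown.

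The excess in replicate 3 held for the list as a whole. Its summed level was 2620, 3330 and 5670 CPM in controls, 4610, 4700 and 6990 CPM in the Fam60a knockdown and 5520, 5440 and 10800 CPM in the Sin3a knockdown. Within numbers the list's median difference was 1.36, 0.93 and 0.60 on the log2 scale for replicates 1, 2 and 3. Without the block 2 of the 8 rises held, and without the third Sin3a replicate 14 of 20 members rose, where 9.48% of all genes did. Not called were Lamb1 (0.77 ± 0.19, adjusted p = 0.0652), Lama1, Col4a1 and 9 others, among them Apoe with a log2 fold change of 0.04.

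Neural genes had the highest share of falls of the 23 lists. In edgeR 6 of 18 tested members fell and 2 rose, where 2.26% of all tested genes fell and 2.41% rose, and the list's median log2 fold change was -1.23. Calb2, the calcium buffer calretinin, stood at 11.7, 9.40 and 7.30 CPM in controls, 1.06, 1.03 and 0.316 CPM in the Fam60a knockdown and 1.22, 0.743 and 0.812 CPM in the Sin3a knockdown (-3.48 ± 0.31, adjusted p = 0.00628). Elavl3, a neuronal RNA-binding protein, stood at 44.5, 49.4 and 49.0 CPM in controls, 11.2, 14.8 and 8.38 CPM in the Fam60a knockdown and 8.23, 9.47 and 7.72 CPM in the Sin3a knockdown (-2.27 ± 0.22). Tubb3, the neuronal beta-tubulin, stood at 95.6, 77.9 and 96.1 CPM in controls and at 22.3 to 39.3 CPM in the knockdowns (-1.54 ± 0.15). The other 3 were the proteoglycan Ncan (-3.24 ± 0.45), the synaptic protein Cplx1 (-1.49 ± 0.20) and the microtubule protein Mapt (-1.15 ± 0.16). All 6 were lower in each knockdown library than in each control.

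The 2 neural members that rose were the neurofilament genes Nefm and Nefl, whose annotated spans overlap on chromosome 14, so that their reads need not be independent. Nefm stood at 12.5, 12.1 and 45.7 CPM in controls, 38.1, 33.7 and 71.9 CPM in the Fam60a knockdown and 57.5, 41.6 and 226 CPM in the Sin3a knockdown (1.75 ± 0.37, adjusted p = 0.0383). Its levels in replicate 3 were the highest of each group, as in the primitive endoderm list. Without the block the adjusted p was 0.258 for Nefm and 0.281 for Nefl. The neural progenitor genes Pax6 and Nes were not called, at -1.44 ± 0.56 and 0.39 ± 0.51, nor was Stmn2, at -0.07 ± 0.09.

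Trophectoderm genes gave 3 rises and 0 falls among 16 tested in edgeR, against 2.41% and 2.26% of all tested genes, with a median log2 fold change of 0.33. Without the block 1 of the list rose and 0 fell. At an unadjusted p under 0.05 there were 6 rises and 1 fall, by DESeq2 5 and 0, and by limma voom 8 and 3. Hand1, a factor of trophoblast giant cells, stood at 1.79, 2.6 and 6.7 CPM in controls and at 9.30 to 17.2 CPM in the knockdowns (1.98 ± 0.36, adjusted p = 0.0278). Fgfr2 stood at 29.6, 35.9 and 90.7 CPM in controls and at 110 to 153 CPM in the knockdowns (1.44 ± 0.29, adjusted p = 0.0339, 0.0544 without the block). Cdx2, a homeobox factor, rose by 1.93 ± 0.34, with values of 11.5 and 19.1 CPM in replicate 3 of the knockdowns and 4.62 CPM in that of the controls, and its adjusted p without the block was 0.439. Other defining genes were not called, among them Eomes (0.60 ± 0.23), Gata3 (0.76 ± 0.38) and Tfap2c (-0.11 ± 0.18).

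**Figure D4:**
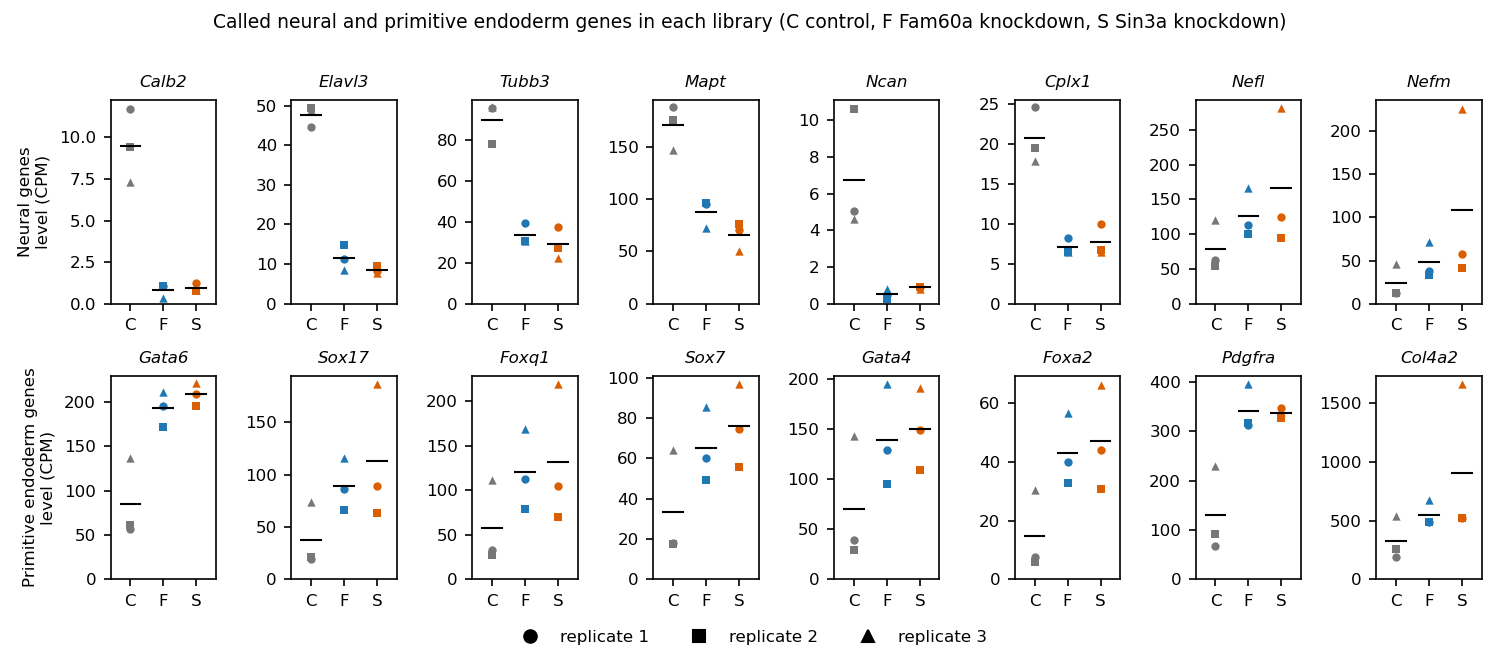
Level in CPM, on linear axes from 0, of the 8 called neural genes (upper row) and the 8 called primitive endoderm genes (lower row) in each library of the controls (C), the Fam60a knockdown (F) and the Sin3a knockdown (S), with bars at group means. The 6 neural falls separate the controls from all knockdown libraries, whereas replicate 3 (triangles) is the highest control in all 8 primitive endoderm panels.

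Pluripotency genes were examined in 3 lists. Of 12 markers of embryonic stem cells edgeR called 0, with 1 (Nanog) at an unadjusted p under 0.05. DESeq2 called 0 and limma voom 4 falls, where limma voom called 3150 falls among all 14465 tested genes. The 12 markers had log2 fold changes from -0.32 for Nanog to 0.22 for Pou5f1 and summed levels of 1730 to 2110 CPM over the 9 libraries. In the longer list of core and naive genes, 3 of 24 fell and 0 rose in edgeR (12.5% called, against 4.67% of all tested genes), with a median of -0.16. Without adjustment (p under 0.05) there were 7 falls and 2 rises, by DESeq2 4 and 0, and by limma voom 12 and 2. Prdm14, a repressor that supports the naive state, stood at 80, 70 and 66.6 CPM in controls, 33.5, 26.2 and 17.6 CPM in the Fam60a knockdown and 43.6, 41.4 and 24.4 CPM in the Sin3a knockdown (-1.27 ± 0.21, adjusted p = 0.0224). Klf2, a naive-state factor, changed by -0.62 ± 0.13 and Fgf4, a growth factor secreted by these cells, by -0.39 ± 0.09. Fgf4 stood at 198 to 208 CPM in controls and 142 to 165 CPM in the knockdowns, a small step that did not overlap.

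Genes of the primed state, which follows the naive one in the embryo, gave 2 rises and 3 falls among 19 tested. The share of primed genes called was 26.3%, against 4.67% of all tested genes. Dusp6, a phosphatase induced by ERK signalling, rose by 0.63 ± 0.11 and the DNA methyltransferase Dnmt3b by 0.53 ± 0.10 (adjusted p = 0.0295, 0.0783 without the block). The transcription factor Zic2 stood at 42.5, 35.0 and 35.5 CPM in controls, 15, 11.2 and 13.0 CPM in the Fam60a knockdown and 8.08, 5.94 and 7.72 CPM in the Sin3a knockdown (-1.88 ± 0.29). It was among the genes that differed between the knockdowns. Car14, a carbonic anhydrase, fell with 18 knockdown reads against 93 in controls (adjusted p = 0.0498), and in the Sin3a knockdown, with 1 read, the ratio was 69.7-fold lower with a counting interval of 12.2 to 2780. Crmp1 was the third fall.

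In the Nodal pathway, which patterns the early embryo, edgeR called Lefty1 alone of 18 tested members (5.56%, against 4.67% of all tested genes). At an unadjusted p under 0.05 there were 3 rises and 3 falls, by DESeq2 1 and 1, by limma voom 4 and 8, and in the 3-group mean 1 and 2. Lefty2, its paralog, stood at 105, 72.3 and 81.5 CPM in controls, 36.0, 18.6 and 25 CPM in the Fam60a knockdown and 1.98, 1.67 and 0.812 CPM in the Sin3a knockdown, and did not pass the pooled test (-2.6 ± 0.91, adjusted p = 0.168). The ligand Nodal, at -0.21 ± 0.15, and the coreceptor Tdgf1, at -0.07 ± 0.15, were not called. Lefty1 and Lefty2 are close paralogs, so reads may be split between them.

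Adhesion receptors gave calls in both directions. Of 19 integrin subunits 4 rose and 2 fell (31.6% called, against 4.67% of all tested genes). After Itga4, Itga8 stood at 10.4, 15.8 and 6.41 CPM in controls, 47.9, 80.6 and 40 CPM in the Fam60a knockdown and 56.1, 67.2 and 24.0 CPM in the Sin3a knockdown (2.29 ± 0.21, adjusted p = 0.00628). Itga3, part of a laminin receptor, rose by 0.74 ± 0.09 and Itga1, part of a collagen receptor, by 3.16 ± 0.68 (adjusted p = 0.0405). The leukocyte integrin subunits Itgb7 and Itgal changed by -1.09 ± 0.19 and -2.23 ± 0.45. Itgb7 can pair with the alpha-4 subunit, and it stood at 78.5 to 99.9 CPM in controls and 32.6 to 55.2 CPM in the knockdowns, while Itgb1, the other partner, was not called (0.12 ± 0.10).

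Among 24 cadherin genes, the calcium-dependent adhesion molecules, 4 fell and 2 rose (25% called, against 4.67% of all tested genes). After Fat2, Cdh3, or P-cadherin, stood at 42.4, 54.4 and 43.1 CPM in controls, 11.8, 23.2 and 18.5 CPM in the Fam60a knockdown and 11.6, 13.9 and 7.72 CPM in the Sin3a knockdown (-1.69 ± 0.27, adjusted p = 0.0209). Cdh23 and Cdh22 changed by -2.29 ± 0.39 and -2.30 ± 0.50. The rises were Pcdh19 (1.85 ± 0.36, adjusted p = 0.0325, 0.164 without the block) and Dchs1 (1.49 ± 0.31, adjusted p = 0.0379, 0.0562 without the block). E-cadherin, Cdh1, the main cadherin of these cells, was not called (-0.18 ± 0.12).

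Of 14 glutamate receptor genes 1 rose, Grm6, and 2 fell (21.4% called, against 4.67% of all tested genes). Grin1, a subunit of the NMDA receptor, stood at 51.6, 39.2 and 25.5 CPM in controls, 20.1, 18.1 and 8.54 CPM in the Fam60a knockdown and 10.1, 13.4 and 9.75 CPM in the Sin3a knockdown (-1.53 ± 0.25). Grm4 changed by -2.08 ± 0.44, in the direction opposite to Grm6. Among 11 kallikreins and membrane serine proteases 3 fell, Klk1, Tmprss13 and Tmprss5 (-1.67 ± 0.34), and 0 rose, with a median of -1.67. The share of proteases called was 27.3%, against 4.67% of all tested genes. With p left unadjusted (under 0.05) there were 6 falls and 0 rises, by DESeq2 4 and 0, and by limma voom 7 and 1.

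Extracellular matrix genes gave 3 rises and 2 falls among 27 (18.5% called, against 4.67% of all tested genes). P4ha1 and P4ha2, which hydroxylate collagen, rose by 0.68 ± 0.11 and 0.95 ± 0.21. Without the block their adjusted p was 0.124 and 0.356. P4ha2 stood at 371 CPM in the third Sin3a replicate and at 108 to 201 CPM in the other 5 knockdown libraries. The collagen crosslinking enzymes Loxl1 and Loxl2 changed by -1.40 ± 0.29 and -1.13 ± 0.24. Loxl1 and Loxl2 were lower in every knockdown library.

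Targets of p53, the DNA damage response factor, gave 5 rises and 0 falls among 30 in edgeR, with a median log2 fold change of 0.30. The share of targets called was 16.7%, against 4.67% of all tested genes. At an unadjusted p under 0.05 there were 12 rises and 0 falls, with 8 rises by DESeq2, 16 by limma voom and 0 falls by either. Perp, a desmosome protein of the apoptosis response, stood at 29.0, 31.4 and 23.5 CPM in controls, 96.1, 88.7 and 105 CPM in the Fam60a knockdown and 118, 134 and 58.9 CPM in the Sin3a knockdown (1.84 ± 0.23, adjusted p = 0.0130). Pmaip1, the proapoptotic Noxa, stood at 32.5 to 41.1 CPM in controls and 64.7 to 81.1 CPM in the knockdowns (0.98 ± 0.14). Btg2, an antiproliferative gene, rose by 0.96 ± 0.15, the death receptor gene Tnfrsf10b by 0.62 ± 0.14, and Plk2 by 1.36 ± 0.23. All 5 were higher in each knockdown library than in each control. Cdkn1a, Mdm2 and Bax, the best known targets, were not called, at 0.32 ± 0.15, 0.48 ± 0.15 and 0.23 ± 0.27, and Trp73, at -0.04 ± 0.34, was not called either.

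Of 35 genes of the G1/S transition and DNA replication edgeR called 1 (2.86%, against 4.67% of all tested genes). DESeq2 called 2 falls and limma voom 10 falls and 2 rises. Over all 14465 tested genes DESeq2 called 683 falls, and limma voom called 3150 falls and 3022 rises. The edgeR call was a fall of the cyclin Ccnd2, at 58.8, 51.3 and 84.9 CPM in controls, 11, 11.2 and 37.5 CPM in the Fam60a knockdown and 13.1, 7.43 and 72.3 CPM in the Sin3a knockdown (-1.85 ± 0.36, adjusted p = 0.0328). The third replicates were the highest of each group, and without the block the adjusted p was 0.299. Ccnd1, at 143 to 163 CPM in controls and 53.9 to 108 CPM in the knockdowns, did not overlap but was not called (-0.85 ± 0.23, adjusted p = 0.0788). Of 9 CDK inhibitors and RB family genes 1 rose, Cdkn2c, at 3.76 to 6.56 CPM in controls and 10.2 to 21.9 CPM in the knockdowns (1.65 ± 0.29). The share of these 9 called was 11.1%, against 4.67% of all tested genes.

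Among 18 Wnt feedback genes and targets 2 rose and 2 fell (22.2% called, against 4.67% of all tested genes). Notum, a secreted inhibitor of Wnt, stood at 116, 125 and 104 CPM in controls, 43.7, 51.3 and 32.1 CPM in the Fam60a knockdown and 40.7, 44.8 and 56.1 CPM in the Sin3a knockdown (-1.37 ± 0.17, adjusted p = 0.0130). Axin2, also a feedback inhibitor, rose by 0.73 ± 0.13, and the repressor Tcf7l1 changed by -0.58 ± 0.11. The second rise was Cdx2. In cholesterol biosynthesis, 2 of 23 genes fell, among them Dhcr7 (-0.72 ± 0.15), the enzyme of the last step of cholesterol synthesis. Among 32 germline genes, Tdrd12, a gene of the piRNA pathway, fell by 1.59 on the log2 scale (SE 0.21), and of 16 motile cilium genes Foxn4, a forkhead factor, fell by 1.47 (SE 0.31; adjusted p = 0.0387, 0.0783 without the block). For cholesterol biosynthesis, germline and motile cilium genes the shares called were 8.70%, 3.12% and 6.25%, against 4.67% of all tested genes.

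Of 24 tested subunits of the SIN3-HDAC complex edgeR called 0, at a median log2 fold change of -0.06. Without adjustment (p under 0.05) there was 1, Sin3a, while DESeq2 called 0 and limma voom 7, all lower. Limma voom called 3150 of all 14465 tested genes lower. After Sin3a, the largest value was that of Ing2 (0.74 ± 0.40), which stood at 35.9 to 43.8 CPM in controls, 38.0 to 46.5 CPM in the Fam60a knockdown and 65.4 to 148 CPM in the Sin3a knockdown. Hdac1 and Hdac2 both stood at -0.07 (SE 0.18 and 0.09), and Sin3b at 0.20 ± 0.21. Two-cell-like genes, a rare state of these cultures, gave 0 edgeR calls among 18, with a median of -0.52. With p left unadjusted (under 0.05) there were 5 lower and 1 higher, by DESeq2 2 lower and 0 higher, and by limma voom 8 and 2. Several, such as the Zscan4 and Usp17l genes, are near-identical copies whose reads cannot be assigned with certainty.

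Markers of feeder fibroblasts were few and low. Of 14 entries 8 were tested, 1 fell (Fbln2, -2.05 ± 0.38) and 0 rose (12.5% called, against 4.67% of all tested genes). The tested entries had a summed level of 65.4 to 149 CPM in controls and 28.9 to 85.3 CPM in the knockdowns. Col3a1, Postn, Lum, Dcn, Twist2 and Prrx1 did not pass the filter on low counts. The part of this difference in other results was not tested. Of 9 tested mitochondrially encoded genes 0 were called by edgeR, DESeq2 or limma voom, and 0 were at an unadjusted p under 0.05.

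**Figure D5:**
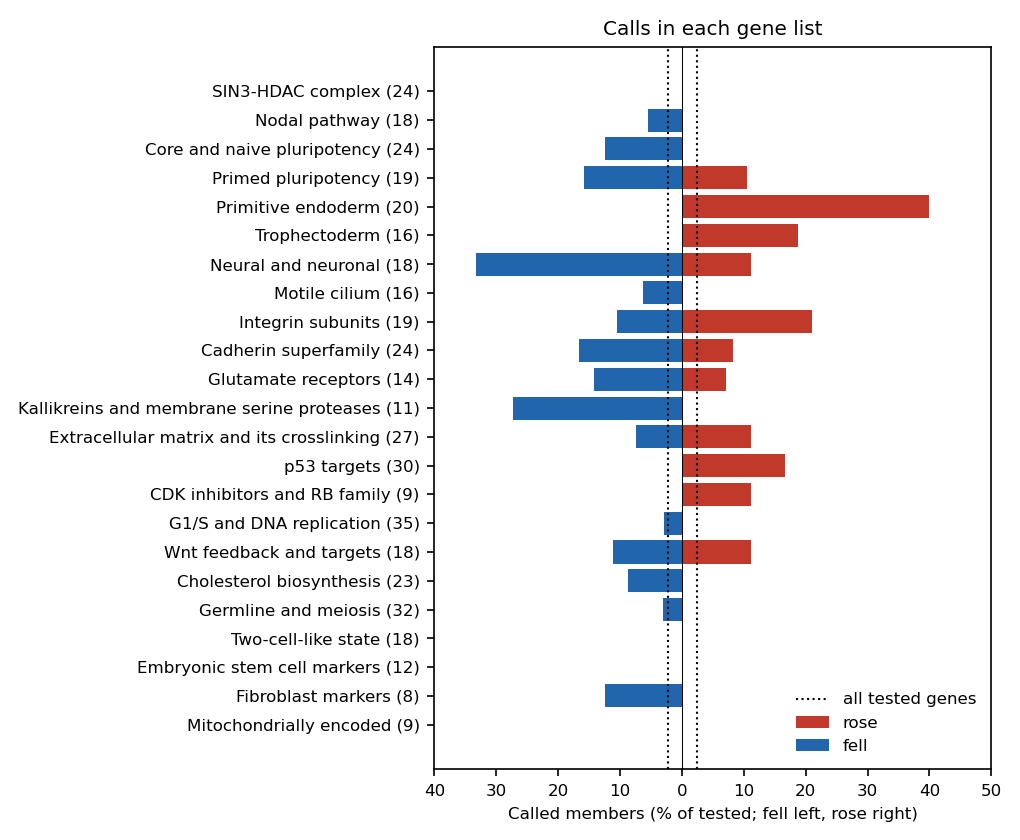
Share of the tested members of each gene list that rose (red, to the right) or fell (blue, to the left), in percent, with the number tested in brackets and dotted lines at the shares of all tested genes, 2.41% and 2.26%. Primitive endoderm has the longest bar to the right (8 of 20) and the neural list the longest to the left (6 of 18), and 4 lists have no call.

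Leaving out the third Sin3a replicate, where 9.48% of all genes rose and 7.11% fell, changed the counts of most lists. The p53 targets then gave 11 rises and 0 falls, integrins 6 and 4, cadherins 6 and 6, extracellular matrix genes 6 and 2, glutamate receptors 3 and 2, and Wnt genes 3 and 2. Core and naive pluripotency genes gave 2 rises and 5 falls, primed genes 3 and 7, the Nodal pathway 1 and 4, neural genes 3 and 9, and trophectoderm genes 5 and 1. The G1/S genes gave 1 rise and 4 falls, germline genes 2 and 4, motile cilium genes 1 and 3, cholesterol biosynthesis 1 and 3, serine proteases 1 and 3, CDK inhibitors and the RB family 1 and 1, the two-cell-like list 1 and 1, and fibroblast markers 0 and 4.

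Of the called genes matched to the annotation, 99.4% of the rises and 92.2% of the falls were protein-coding, against 95.1% of all tested genes. Among the others, 5830418P13Rik rose by 2.32 ± 0.50, from 1.19 to 1.63 CPM in controls to 3.64 to 6.03 CPM in the Fam60a and 7.72 to 12.6 CPM in the Sin3a knockdown, a called difference. Igf2os, a transcript antisense to Igf2, stood at 6.35, 6.79 and 6.41 CPM in controls and 10.4 to 26.8 CPM in the knockdowns (1.66 ± 0.34). The kit marked the strand, and the deposited tables carry a mark that reads as the reverse-stranded option of featureCounts, but no header states it, so the split of sense and antisense reads at this locus was taken as uncertain. The falls were 4930591A17Rik (-3.26 ± 0.51), Gm3765 (-2.77 ± 0.52) and Gm15513 (-2.38 ± 0.32), each lower in every knockdown library.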

How the data were processed

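Total RNA of 9 libraries (6 knockdown, 3 control) was read as single ends of 50 bases after an Illumina stranded kit, per the labels' protocols. The authors deposited 1 table per library of raw counts, whole reads per Ensembl gene with no normalization. STAR 2.4.0j, Picard and featureCounts of Subread are named in the submitters' processing notes, and duplicate reads had been removed, per the file headers. Removing duplicates can cap the counts of abundant genes. The genome build and annotation of the counting are not given in the sources used here. GENCODE M21 (GRCm38) supplied each gene's position, type, symbol and exon GC and matched 32937 of 37990 genes and left 333 tested genes unmatched. Libraries titled T2SC were taken as the scrambled controls by elimination. The labels list E14 under age, while the growth protocol names it as the line.

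Counts were fitted in R 4.3.3 with edgeR 4.0.16 (filterByExpr with the 3 groups, TMM, robust quasi-likelihood F-tests), with the knockdowns as 1 group and the replicate number as a block. Benjamini-Hochberg adjustment covered 14465 tested genes. Adjusted p of a change against control are from this fit unless another fit, set of libraries or tool is named. Log2 fold changes carry SEs derived from the F statistic. A 3-group model gave each knockdown's own change, their difference and the adjusted p of that difference. Differences between hairpins stay in the residual of the pooled model, so that its calls favour genes moving alike. The common coefficient of variation was 0.26 in the pooled and 0.202 in the 3-group model. Alternatives used limma 3.58.1 and DESeq2 1.42.0. Under each scaling the median of all genes lay close to 0, and scaling cannot show a change of all transcripts together.

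The replicate numbers of the titles were taken to pair the samples. Deviations from group means correlated at 0.178 to 0.622 in 9 of 9 same-numbered pairs and at -0.448 to 0.113 otherwise. Each of the 9 libraries had its best match among libraries of the same number. Deviations cancel out within a group, so positive correlations of same-numbered pairs push the others down by arithmetic. The pairing was read from the same data that the block then adjusts, since the labels do not say what a number shares.

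The members and the 23 gene lists were chosen with earlier results of these data known. Named genes were the 4 markers and 2 targets, and per direction 6 groups. The largest 15 were ranked by the smaller of the 2 knockdowns' changes among called protein-coding genes averaging 2 CPM or more, without overlap of libraries or a clone name. Further groups were the 6 smallest adjusted p at 20 CPM or more, the 5 largest called differences between knockdowns, up to 3 noncoding genes, and up to 3 members of each list. Genes named outside this rule were chosen after their values were seen, and a few genes within the counts are not reported here by name. Promoters came from the RefSeq table for GRCm38.p6. A comparison of promoters between genes that rose and fell was void, because the table held 74.5% and 66.4% of them.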

Additional observations from a re-analysis of the deposited data

Results flagged for a closer look

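A difference between the knockdowns passed the edgeR test (adjusted p under 0.05 in the 3-group model with the replicate number as a block) for 14 of the 102 named genes. As the log2 change in the Fam60a minus that in the Sin3a knockdown, it was 2.91 for Lefty1 (adjusted p = 0.0109), 2.33 for Fxyd2 (0.0465), 2.12 for Rac2 (0.037), 1.44 for Nfatc4 (0.0276), 1.38 for Cpsf4l (0.0172) and 0.85 for Zic2 (0.045), each of which fell less in the Fam60a knockdown. It was 1.28 for Tbx20 (0.0233), 1.18 for Adrb1 (0.0292), 0.89 for Tgfbr2 (0.0255) and 0.88 for Fgfr4 (0.0328), which rose more in the Fam60a knockdown, and -1.16 for 5830418P13Rik (0.0329) and -0.62 for Plk2 (0.0232), which rose more in the Sin3a knockdown. The targets themselves differed by -1.42 for Sinhcaf (0.0213) and 0.79 for Sin3a (0.0124), each lower under its own hairpin.

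In 8 of the 102 named genes 1 of the 6 knockdown libraries lay far from the other 5, by a gap above Dixon's critical share of the whole range. For 6 like values from a normal distribution, chance gives this in about 1 in 20 groups. The 6 libraries here came from different hairpins and replicate numbers, so that rate need not hold. In 7 of the 8 the library was the third Sin3a replicate, which also had the fewest reads. Its levels there were 226 CPM for Nefm (next 71.9), 371 CPM for P4ha2 (next 201), 116 CPM for Map3k6 (next 74.8), 62.6 CPM for Crmp1 (next 48.2), 54.4 CPM for Pcdh19 (next 25.1), 15.4 CPM for Foxl2 (next 5.49) and 11.4 CPM for C1qtnf2 (next 3.66). The eighth was Actn3, at 4.11 CPM in the third Fam60a replicate (next 10.8). All 8 genes remained called without the third Sin3a replicate.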

How the results depend on the processing

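Counts of called genes depended on the model and the libraries, while no named call changed its direction under any alternative. In this order the counts are genes called, rises, falls, genes differing between the knockdowns, and genes both called and differing; the values with the replicate block were 676, 349, 327, 672 and 16. With no replicate block they were 519, 227, 292, 443 and 14, and 463 of the 676 calls were kept. The mean of the knockdowns in the 3-group model gave 1791 (12.4% of tested genes), 782, 1009, the same 672 and 290. Size factors of DESeq2 gave 672, 350, 322, 656 and 14, and no filter on low counts 819, 424, 395, 599 and 27. The DESeq2 test gave 1572, 889, 683, 1513 and 188. Limma voom with quality weights gave 6172, 3022, 3150, 5857 and 2576. Its weights were 0.0602 to 0.384 for the Sin3a, 0.951 to 1.84 for the Fam60a and 1.58 to 6.4 for the control libraries. Its pooled changes thus lean on the Fam60a libraries and do not measure both knockdowns evenly. A GC correction with the replicate block gave 1023, 546, 477, 1504 and 67. Without the 3 libraries numbered 3 the counts were 916, 599, 317, 6462 and 299.

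Leaving out each library in turn gave 0 to 2445 called genes, 0 to 1397 rises, 0 to 1048 falls, 0 to 5321 differing genes and 0 to 593 both. Called genes numbered 160, 233 and 566 without Fam60a replicates 1, 2 and 3, 98, 190 and 2445 without Sin3a replicates 1, 2 and 3, and 0, 0 and 53 without control replicates 1, 2 and 3. Genes differing between the knockdowns numbered 0 in edgeR without replicate 1 or 2 of any group, with 1981 to 3140 at an unadjusted p under 0.05, and 195, 5321 and 341 without replicate 3 of Fam60a, Sin3a and control. The alternatives from here were added after seeing the data. The 3-group mean without Sin3a replicate 3 gave 6813, 3302, 3511, 5321 and 3040. Limma voom gave 3493, 1962, 1531, 5303 and 1226 without control replicate 1, and 3245, 1794, 1451, 4612 and 1036 without control replicate 2. DESeq2 gave 556, 328, 228, 770 and 27 without control replicate 1 and 600, 381, 219, 735 and 26 without control replicate 2. The cause was not tested, beyond the fewer samples in each such fit. Without a control, the knockdown libraries of its number also left the contrast with control.

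Sinhcaf passed the test in limma voom (-1.04, adjusted p = 0.0017; -1.05 and -1.07 without control replicates 1 and 2) and in the 3-group mean without Sin3a replicate 3 (-0.6). Sin3a passed in the 3-group mean (-0.8), in limma voom (-0.51) and in the 3-group mean without Sin3a replicate 3 (-0.77). In the 3-group model Sinhcaf changed by -1.23 in the Fam60a and 0.19 in the Sin3a knockdown, and Sin3a by -0.4 and -1.19. The limma voom values of both targets lay nearer to those of the Fam60a knockdown. Of the 100 named genes called, 82 stayed called with no replicate block, 100 without Sin3a replicate 3, 37 to 83 without another knockdown library, and 0, 0 and 21 without control replicates 1, 2 and 3. Depth limits genes of low level, since the floor of 3 reads was 1.15 CPM in the third Sin3a replicate.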

Other observations

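Of 16 tested genes of the Hedgehog pathway, a list chosen after their values were seen, edgeR called 4 falls and 0 rises, where 2.26% and 2.41% of all tested genes fell and rose, and the list's median log2 fold change was -0.2. The falls included the receptor Ptch1 and the transcription factors Gli1 and Gli2, of which Gli1 and Ptch1 are known targets of the pathway. Gli1 stood at 132, 154 and 145 CPM in controls, 42.0, 56.8 and 50.6 CPM in the Fam60a knockdown and 18.4, 21.4 and 19.1 CPM in the Sin3a knockdown (-2.03 ± 0.38, adjusted p = 0.0293 in edgeR), and it was 1 of the 16 called genes that differed between the knockdowns. Ptch1 stood at 178, 184 and 163 CPM in controls and 66.6 to 109 CPM in the knockdowns (-1.05 ± 0.14). Gli2 changed by -1.06 ± 0.14, and no knockdown library of these 3 genes overlapped a control. The ligands Ihh (0.98 ± 0.30) and Dhh (0.37 ± 0.42), the coreceptor Boc (0.83 ± 0.26) and the transducer Smo (-0.45 ± 0.38) were not called.

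Genes of fibroblast growth factors and their receptors, taken by symbol, were also chosen after their values were seen. Of 10 tested ligands 2 rose and 4 fell, and of 4 receptors 3 rose and 0 fell in edgeR, against 2.41% and 2.26% of all tested genes. Beside the falls of Fgf4, Fgf15 and Fgf17, Fgf1 stood at 25.1, 37.9 and 35.2 CPM in controls and 6.91 to 13.6 CPM in the knockdowns (-1.63 ± 0.23). Fgf10 stood at 26.4, 28.9 and 47.1 CPM in controls and 53.6 to 116 CPM in the knockdowns (1.40 ± 0.30), and Fgf3 rose by 1.12 ± 0.19. The receptor Fgfr3 rose by 1.24 ± 0.27, as Fgfr2 and Fgfr4 did.

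Some called genes were neighbours on the chromosome. For 20 of 320 falls (6.25%) the next tested gene also fell, where 2.27% of all tested genes did, and for 13 of 346 rises (3.76%) the next also rose, against 2.45%. Pairs that fell included Padi3 and Padi2, Fgf4 and Fgf15, Gli1 and Inhbc, and the run of Tmprss13, Fxyd6 and Fxyd2. Slfn9 and Slfn8 are close paralogs, and Crmp1 with Evc overlap, so that their reads need not be independent. No test of this count was made.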
